A study of Mus musculus with 12 samples.

Results

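The BMP, TGF-beta and activin signaling genes are the ligands, receptors, secreted antagonists, latency proteins, Smads and Id targets of one family of secreted growth factors. A list of 43 such genes was used, and each was matched by its symbol to the single-locus entries of the deposited count table, taking the entry with the highest mean count where several held it. All 43 were found among 20114 entries, and 40 of them were among the 14039 loci with enough counts to be tested. The 43 entries hold other symbols as well in 8 cases: Bmp4, Acvr2a, Fstl3, Chrd, Ltbp2, Ltbp3, Smad3 and Id4 share their counts with a neighbouring or overlapping symbol.

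RNA was sequenced from primary mammary epithelial cells of adult female mice at an age of 9 weeks, in 12 libraries that form 3 groups of 4. The strains 129X1/SvJ, C57BL/6 and Swiss Webster contributed to their background. SmoM2 is an activated form of Smoothened, which relays Hedgehog signals from the membrane, and mT-mG is a reporter that switches from red to green membrane fluorescence in cells where Cre has acted. Recombined cells came from mT-mG/SmoM2;MMTV-Cre animals and were the green, SmoM2-positive ones. Unrecombined cells had the same genotype but stayed red and SmoM2 negative. Wild type cells were red cells of mT-mG/SmoM2;+ animals, which carried both alleles and no Cre. All 3 groups therefore carried the reporter and the SmoM2 allele, and the Cre was driven by the MMTV promoter, which is active in mammary and other secretory epithelia. SmoM2, the action of Cre and the sorted colour differ together between recombined cells and the other groups, and cannot be told apart. The labels do not give the animals behind each library, so p-values measure the spread between these libraries.

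Ligands of this family bind pairs of type I and type II receptor kinases at the cell surface. The type I receptor then phosphorylates Smad proteins, which enter the nucleus with Smad4: Smad1 and Smad5 for most BMPs, Smad2 and Smad3 for TGF-beta and activin. Secreted antagonists hold ligands away from their receptors, and TGF-beta is stored in the matrix in a latent form. In the mammary gland BMPs and their relatives are known for roles in bud and nipple formation, and TGF-beta for restraint of ductal growth.

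Total counts per library lay between 19581993 and 34779433, at which depth 3 counts were worth between 0.0896 and 0.162 CPM (counts per 1000000 of the library, scaled by the trimmed mean of M values, TMM). Ptch1, the Hedgehog receptor that is itself a target of the pathway, had between 133 and 809 CPM in recombined, 24.8 to 61.3 in unrecombined and 34.5 to 38.1 in wild type libraries, and Smo and Gli1 were also higher in every recombined library than in any other. Recombined libraries 3 and 4 had counts in 14256 and 14601 loci, the fewest of the 12, against 15289 to 16814 elsewhere. Salivary gland transcripts other than Amy1 summed to 3157 CPM in recombined 2, 11508 in unrecombined 2 and 3694 in wild type 2, to 150 to 160 CPM in the first libraries of the recombined and unrecombined groups, and to at most 0.683 CPM in the other 7. The library numbers in the labels form a 23 series and a 24 series: the 24 series holds recombined 3 and 4, unrecombined 3 and 4 and wild type 4. Calls of the named pathway genes that were lost without recombined 3 and 4 or in the 7 libraries with few salivary gland transcripts are given with their values.

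In recombined against wild type cells, 6 of the 40 tested genes were higher and 1 was lower at an adjusted p under 0.05 (edgeR quasi-likelihood F test, two-sided, Benjamini-Hochberg over all 14039 loci). That is 17.5%, where 6.55% of all loci passed (4.17% higher and 2.38% lower). The 6 were the ligand Bmp7, the co-receptor Tgfbr3, the antagonists Fst and Fstl3, the transducer Smad1 and the transcriptional regulator Id4, and the lower one was the ligand Bmp3. The median log2 fold change of the 40 genes was 0.37, beside -0.02 over all loci, with 29 above 0 and 11 below. In recombined against unrecombined cells, 5 were higher (Bmp7, Fst, Ltbp2, Smad1 and Id4) and 1 lower (Tgfbr2), or 15% beside 5.22% of all loci, with 3.08% of all loci higher and 2.14% lower, and a median of 0.38 beside -0.01. This fit did not pair the libraries. With the replicate number as a block, which pairs these groups, Acvr1 and Tgfbr3 passed as higher too (adjusted p = 0.0261 and 0.0387, edgeR). With the block in these groups alone Tgfbr2 did not pass (0.0662). Both comparisons use the same recombined libraries, so their values are not independent and are given side by side. The shares over all loci are no test of the list, whose genes were chosen with earlier results of these data known. Against wild type cells the median SE of the 40 genes was 0.30, beside 0.37 over all loci.

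**Figure D1:**
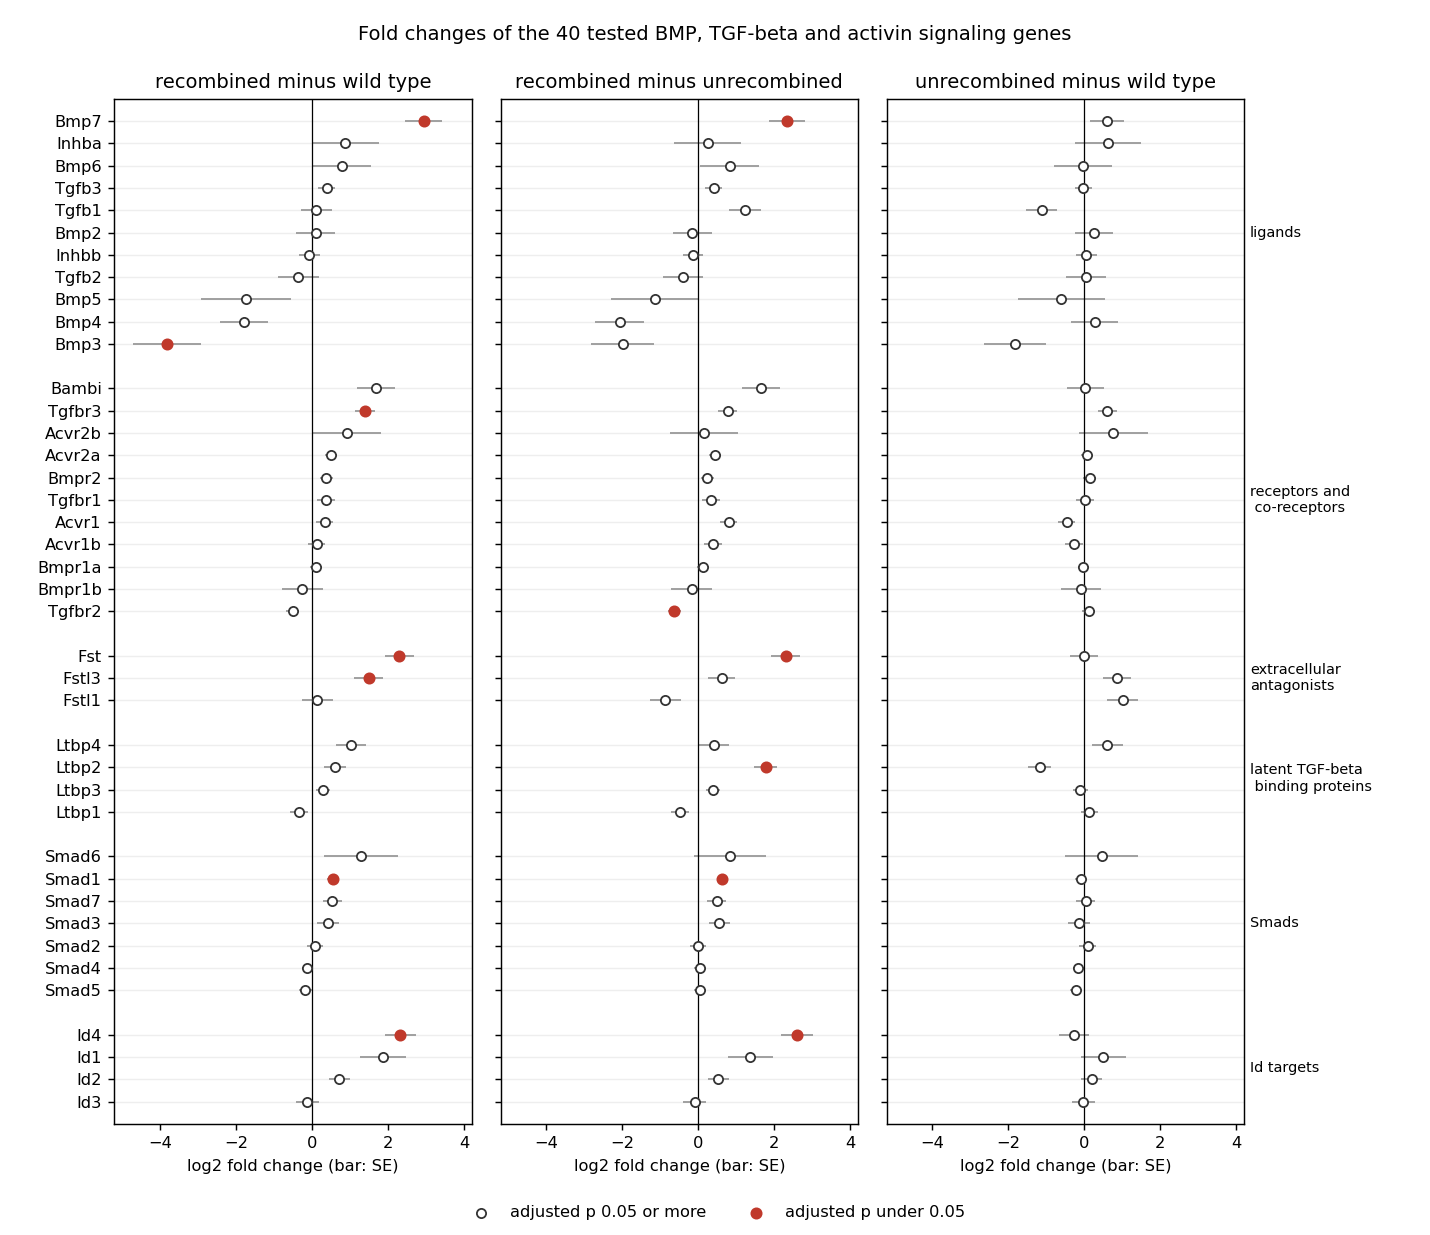
Log2 fold changes of the 40 tested signaling genes in 3 comparisons, grouped by role, with bars for the SE over groups of 4 libraries and filled red points for an adjusted p under 0.05. Bmp7, Fst and Id4 stand more than 2 log2 units to the right in both comparisons of recombined cells, Bmp3 lies farthest to the left against wild type, and no point is filled for unrecombined against wild type.

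Among the 11 ligands, Bmp7 rose and Bmp3 fell in recombined cells, and the other 9 did not pass in any comparison. Bmp7, a BMP ligand that signals through Smad1 and Smad5 (mm9 chromosome 2, listed at position 172695188), had 11.9, 26.2, 15.5 and 33.6 CPM in recombined libraries 1 to 4, against 3.59, 5.46, 1.98 and 6.32 CPM in unrecombined and 4.87, 2.98, 1.70 and 1.86 CPM in wild type libraries. Each recombined library lay above all 8 others, with libraries 2 and 4 the highest. The means were 21.8 ± 9.95 CPM in recombined, 4.34 ± 1.94 in unrecombined and 2.85 ± 1.46 in wild type cells (SD, n = 4 each). The level in recombined cells was 7.62 times that of wild type cells (log2 2.93 ± 0.48 SE, adjusted p = 0.00262, edgeR) and 5.03 times that of unrecombined cells (log2 2.33 ± 0.47, adjusted p = 0.0089). Both calls held without any single library, while without recombined 3 and 4 together the adjusted p was 0.0234 against wild type and 0.0656 against unrecombined cells (log2 2.73 and 2.15).

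Bmp3, an atypical BMP known as an antagonist of other BMPs in bone (chromosome 5, position 99283457), had 5.82, 1.94, 0 and 2.31 CPM in recombined, 15.5, 2.64, 6.83 and 15.7 in unrecombined and 18.8, 38.5, 51.8 and 35.1 CPM in wild type libraries. The wild type libraries lay above all others, and the recombined and unrecombined ranges overlapped. No read was counted in recombined 3, which allows up to 0.162 CPM. The log2 difference of recombined from wild type cells was -3.81 ± 0.89 (adjusted p = 0.0220, edgeR), and that from unrecombined cells was -1.99 ± 0.83 (adjusted p = 0.220). The call against wild type was lost without recombined 2 (adjusted p = 0.0554), recombined 4 (0.0696), wild type 3 (0.0536) or wild type 4 (0.0528), with log2 differences of -3.83 to -3.59, and with no filter on low counts (0.0530). Without recombined 1 it passed at a log2 difference of -4.64 (adjusted p = 0.0126).

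Bmp4, a BMP ligand of bud mesenchyme and other stroma (entry shared with Gm15217; chromosome 14, position 46999141), had 1.85, 0.953, 0.0538 and 1.4 CPM in recombined, 4.16, 5.84, 3.56 and 4.45 in unrecombined and 3.13, 3.56, 3.32 and 4.91 CPM in wild type libraries. The recombined libraries lay below all others without overlap, yet neither difference passed (log2 -1.79 ± 0.64 against wild type, adjusted p = 0.123; -2.06 ± 0.64 against unrecombined, adjusted p = 0.0878, edgeR). It passed with DESeq2 in both (adjusted p = 0.0234 and 0.00709), and against unrecombined cells without recombined 3 (0.0334). Tgfb1, the TGF-beta ligand of most tissues, had 6.03, 13.3, 17.0 and 12.3 CPM in recombined, 4.06, 4.26, 5.0 and 7.30 in unrecombined and 5.35, 20.2, 9.34 and 10.1 CPM in wild type libraries. Its ranges overlapped in each pair of groups and no difference passed, although the log2 value against unrecombined cells was 1.24 ± 0.42 (adjusted p = 0.115; 0.0404 with DESeq2 and 0.0457 without recombined 1). Tgfb2 varied widely within groups, with 31.0, 63.7, 17.2 and 6.97 CPM in recombined, 32.3, 53.8, 54.2 and 16.1 in unrecombined and 42.8, 29.5, 50 and 30.4 CPM in wild type libraries, and did not pass (log2 -0.36 ± 0.53 against wild type, adjusted p = 0.765). Tgfb3, the third TGF-beta ligand, averaged 146 ± 39.5 CPM in recombined, 110 ± 23.9 in unrecombined and 112 ± 25.4 CPM in wild type cells, which did not pass either (adjusted p = 0.379 against wild type). The remaining ligands, Bmp2, Bmp5, Bmp6 and the activin subunits Inhba and Inhbb, had log2 values between -1.74 and 0.87 against wild type cells, and none passed. Of these, Bmp5 and Bmp6 averaged at most 2.06 CPM in any group.

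Of the 11 receptors and co-receptors, Tgfbr3 rose against wild type cells and Tgfbr2 fell against unrecombined cells. Tgfbr3 encodes betaglycan, a co-receptor that presents TGF-beta 2 and binds inhibin (chromosome 5, position 107535588). It had 352, 393, 406 and 453 CPM in recombined, 324, 171, 205 and 235 in unrecombined and 161, 80.1, 195 and 177 CPM in wild type libraries. All recombined libraries lay above all others, and unrecombined 1 came closest to them. The recombined level was 2.61 times that of wild type cells (log2 1.39 ± 0.25, adjusted p = 0.00517, edgeR) and kept its call without any single library, with adjusted p of at most 0.0167. Without recombined 3 and 4 together it was lost (log2 1.27, adjusted p = 0.0760). Against unrecombined cells the log2 value was 0.78 ± 0.25 (adjusted p = 0.0971), and with the replicate number as a block, which pairs these groups, it passed (0.82, adjusted p = 0.0387), as it did with DESeq2 (0.0415).

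Tgfbr2, the type II receptor that all TGF-beta ligands use (chromosome 9, position 115996812), had 55.8, 64.5, 59.9 and 77.0 CPM in recombined, 119, 83.0, 101 and 93.9 in unrecombined and 75.5, 85.3, 111 and 94.4 CPM in wild type libraries. Recombined libraries lay below all unrecombined ones, while recombined 4 lay just above wild type 1. The difference from unrecombined cells was small (log2 -0.63 ± 0.17, adjusted p = 0.0461, edgeR), and that from wild type cells was -0.51 ± 0.17 (adjusted p = 0.0917). The call was lost without recombined 1 (adjusted p = 0.0820), 2 (0.0841) or 3 (0.127), unrecombined 1 (0.154), 3 (0.0918) or 4 (0.0825) or wild type 2 (0.0547) or 4 (0.0685), and with DESeq2 size factors (0.0563), no filter (0.0698), the 2 groups alone (0.0851), these with the replicate block (0.0662) or the number series as a term (0.0540).

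The other 9 receptors did not pass. Acvr1, a type I receptor for BMPs, averaged 93.2 ± 38.3 CPM in recombined, 53.7 ± 7.71 in unrecombined and 74.3 ± 5.53 CPM in wild type cells. All its recombined libraries lay above the unrecombined ones, recombined 1 (65.3 CPM) barely above unrecombined 3 (64.4 CPM), and recombined 3 was the highest at 150 CPM. The log2 value of 0.80 ± 0.23 (adjusted p = 0.0609, edgeR) passed with the replicate block (0.74, adjusted p = 0.0261) and with DESeq2 (0.0208). Without single libraries it lay between 0.48 and 0.93 (adjusted p between 0.0222 and 0.159, edgeR). Bambi, a decoy receptor without a kinase that dampens the pathway, averaged 9.01 ± 5.97 CPM in recombined, 2.86 ± 0.45 in unrecombined and 2.82 ± 1.30 CPM in wild type cells. Its log2 values of 1.67 ± 0.50 and 1.65 ± 0.49 against wild type and unrecombined cells missed the threshold (adjusted p = 0.0600 and 0.0747), and both passed with DESeq2 (0.00957 and 0.0131) and without recombined 1 (0.0193 and 0.0233). Acvr2a, an activin and BMP type II receptor whose entry is shared with Orc4, did not pass either, with a log2 value of 0.49 ± 0.15 (adjusted p = 0.0694) against wild type cells and 0.43 ± 0.15 (0.129) against unrecombined cells; without recombined 1 both passed (0.0210 and 0.0407), and with DESeq2 the first (0.0335). For the BMP receptors Bmpr1a, Bmpr1b and Bmpr2 the log2 values against wild type cells were 0.10 ± 0.16, -0.26 ± 0.54 and 0.38 ± 0.18. The TGF-beta type I receptor Tgfbr1 had 0.36 ± 0.24 and the activin type I receptor Acvr1b 0.12 ± 0.23 in the same comparison. Acvr2b, the second activin type II receptor, averaged at most 0.632 CPM in any group.

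**Figure D2:**
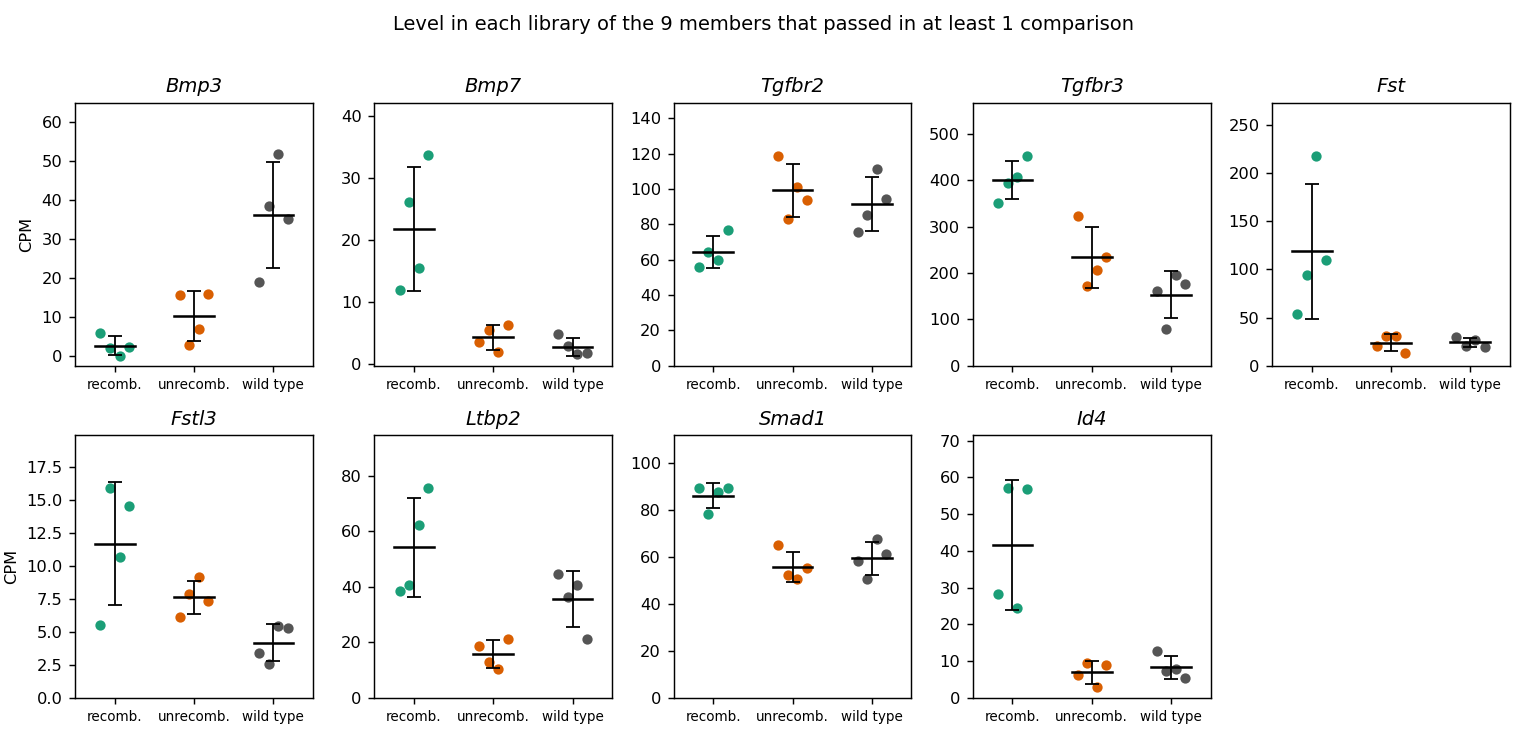
CPM of the 9 signaling genes that passed in at least 1 comparison, with 1 point per library, a line at the mean of 4 and bars for the SD. Recombined libraries (green) lie above both other groups for Bmp7, Tgfbr3, Fst, Smad1 and Id4, and the wild type libraries alone are high for Bmp3.

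Of the 6 secreted antagonists, Fst and Fstl3 rose, Fstl1 did not pass, and Grem1, Chrd and Nog had too few counts to test. Fst encodes follistatin, which binds activins and keeps them from their receptors (chromosome 13, position 115242469). It had 53.2, 93.8, 218 and 110 CPM in recombined, 20.1, 31.2, 31.2 and 13.5 in unrecombined and 29.5, 20.6, 27.1 and 19.9 CPM in wild type libraries. Every recombined library lay above all 8 others, with recombined 3 the highest and recombined 1 the lowest of the 4. The recombined level was 4.89 times that of wild type cells (log2 2.29 ± 0.38, adjusted p = 0.00296, edgeR) and 4.94 times that of unrecombined cells (log2 2.30 ± 0.38, adjusted p = 0.00244). Both calls held without any single library and without recombined 3 and 4 together, where the log2 values were 1.60 and 1.62 (adjusted p = 0.0359 and 0.0288).

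Fstl3, a second activin binding protein of the follistatin family (entry shared with FLRG, its synonym, and Prssl1; chromosome 10, position 79240018), had 5.52, 15.9, 10.7 and 14.6 CPM in recombined, 6.12, 7.88, 9.13 and 7.30 in unrecombined and 3.37, 2.59, 5.45 and 5.27 CPM in wild type libraries. The recombined libraries lay above the wild type ones, by little in recombined 1, and overlapped the unrecombined ones. It rose against wild type cells (log2 1.48 ± 0.37, adjusted p = 0.0280, edgeR), and did not pass against unrecombined cells (0.62 ± 0.36, adjusted p = 0.405). The call was lost with limma-voom (adjusted p = 0.0673), with the 2 groups alone (0.0788) and without recombined 2 (0.0757) or 4 (0.0665) or wild type 1 (0.0777), 2 (0.0809) or 4 (0.0551). Fstl1, a secreted glycoprotein related in sequence to follistatin, averaged 142 ± 78.9 CPM in recombined, 259 ± 52.9 in unrecombined and 129 ± 56.9 CPM in wild type cells, with no difference past the threshold. The BMP antagonists Grem1, Chrd and Nog stayed at or below 2.17 CPM in every library, and Nog had no count in 7 of 12.

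Of the 4 latent TGF-beta binding proteins, microfibril-associated proteins of the matrix, Ltbp2 rose in recombined against unrecombined cells. Ltbp2 is the member of its family that does not bind latent TGF-beta (entry shared with D030025P21Rik; chromosome 12, position 86124161). It had 38.3, 40.5, 62.1 and 75.6 CPM in recombined, 18.8, 12.8, 10.5 and 21.1 in unrecombined and 44.5, 36.3, 40.5 and 21.3 CPM in wild type libraries. Recombined libraries lay above all unrecombined ones and overlapped wild type, and the unrecombined libraries were the lowest group. The recombined level was 3.42 times that of unrecombined cells (log2 1.77 ± 0.31, adjusted p = 0.00327, edgeR), a call that held without any single library and was lost without recombined 3 and 4 together (1.32, adjusted p = 0.0650). Against wild type cells the log2 value was 0.60 ± 0.30 (adjusted p = 0.279). Ltbp1, Ltbp3 and Ltbp4, which hold TGF-beta in its latent complex, had log2 values of -0.35 ± 0.23, 0.28 ± 0.19 and 1.03 ± 0.40 against wild type cells, and none passed in any comparison (adjusted p of at least 0.160).

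Of the 7 Smads, Smad1, the BMP-activated transducer (chromosome 8, position 81862297), rose in both comparisons of recombined cells. It had 89.0, 78.1, 87.3 and 89.3 CPM in recombined, 64.8, 52.2, 50.4 and 55.2 in unrecombined and 58.3, 50.4, 67.5 and 61.0 CPM in wild type libraries. All recombined libraries lay above all others, and the spread within the groups was narrow. The recombined level was 1.45 times that of wild type cells (log2 0.54 ± 0.14, adjusted p = 0.0405, edgeR) and 1.54 times that of unrecombined cells (log2 0.63 ± 0.14, adjusted p = 0.0199). Against wild type, the log2 value lay between 0.46 and 0.60 without single libraries. The call was lost when any 1 recombined or wild type library, or unrecombined 4, was left out (adjusted p between 0.0513 and 0.119, edgeR). It was also lost with upper quartile scaling (0.0831), no filter (0.0715), the 2 groups alone (0.0777) or the number series as a term (0.0611). Against unrecombined cells it was lost without unrecombined 2 (0.0573), 3 (0.0625) or 4 (0.0593), or with the 2 groups alone (0.0519).

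Smad5, the partner of Smad1 downstream of BMP receptors, averaged 73.0 ± 10.2 CPM in recombined, 71.0 ± 3.89 in unrecombined and 82.5 ± 17.3 CPM in wild type cells, and did not pass. Smad2 and Smad3, which TGF-beta and activin receptors phosphorylate, had log2 values of 0.07 ± 0.21 and 0.41 ± 0.28 against wild type cells, and Smad4, the shared partner, -0.13 ± 0.15. The inhibitory Smads, which are themselves induced by the pathway, did not pass: Smad7 averaged 105 ± 29.4 CPM in recombined, 75.1 ± 25.5 in unrecombined and 73.1 ± 9.75 CPM in wild type cells (log2 0.53 ± 0.25 against wild type, adjusted p = 0.251). Smad6 averaged at most 1.01 CPM in any group.

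The Id genes encode helix-loop-helix proteins that lack a DNA binding region and hold other helix-loop-helix factors inactive. Id1, Id2 and Id3 are textbook targets of BMP signaling through Smad1 and Smad5, and Id4 is known from the basal layer of the mouse mammary gland. Promoter windows from RefSeq (build GRCm38.p6, 250 bases before to 50 bases from the transcript start on) were held for Id4, Id2 and Id3. They are shown because Id4 passed the test while Id2 and Id3 did not, with motifs bound by Smad1 and Smad5 (GGCGCC, and GGAGCC or its reverse complement GGCTCC) in capitals. The windows are chr13:48260866-48261165 on the plus strand for Id4, chr12:25096043-25096342 on the minus strand for Id2 and chr4:136143572-136143871 on the plus strand for Id3.
Id4: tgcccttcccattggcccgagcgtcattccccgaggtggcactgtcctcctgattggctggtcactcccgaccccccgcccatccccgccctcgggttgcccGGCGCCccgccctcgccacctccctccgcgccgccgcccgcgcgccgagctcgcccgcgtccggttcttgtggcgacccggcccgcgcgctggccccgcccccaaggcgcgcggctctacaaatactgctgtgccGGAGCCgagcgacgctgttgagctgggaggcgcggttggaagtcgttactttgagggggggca
Id2: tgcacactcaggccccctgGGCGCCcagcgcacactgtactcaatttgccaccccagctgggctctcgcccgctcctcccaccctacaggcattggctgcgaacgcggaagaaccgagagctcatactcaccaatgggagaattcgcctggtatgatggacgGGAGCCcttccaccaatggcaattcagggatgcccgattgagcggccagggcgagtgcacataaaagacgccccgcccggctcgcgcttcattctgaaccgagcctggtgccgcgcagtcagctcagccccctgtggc
Id3: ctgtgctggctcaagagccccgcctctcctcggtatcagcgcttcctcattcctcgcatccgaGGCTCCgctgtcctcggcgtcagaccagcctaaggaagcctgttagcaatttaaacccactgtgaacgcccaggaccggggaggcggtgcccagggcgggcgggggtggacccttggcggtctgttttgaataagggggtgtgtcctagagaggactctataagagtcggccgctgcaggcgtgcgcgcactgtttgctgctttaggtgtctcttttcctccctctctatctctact
The windows of Id4 and Id2 each held 1 GGCGCC and 1 GGAGCC, and that of Id3 held 1 GGAGCC match on the other strand and no GGCGCC. The matches of the different motifs shared no bases in these windows. A window of this length held GGCGCC in 11.9% and GGAGCC in 30.8% of 32851 RefSeq promoters, and in 12 and 20 of the 39 windows held for 31 of the 43 genes (30.8% and 51.3%). The motif of Smad3 and Smad4, CAGACA or TGTCTG, was in 21% of all and 20.5% of these windows, and the core of the Gli motif, ACCACCC or GGGTGGT, in 4.61% and 2.56%. None of the 3 windows printed held either, and base composition was not matched in these shares. Overlapping windows of the same gene, as for Ltbp4, Smad5 and Bmpr1b, were counted separately. Windows were held for 5 of the genes that passed, Fstl3, Id4, Ltbp2, Smad1 and Tgfbr2. Of these only Id4 held GGCGCC, and Id4 and Tgfbr2 held GGAGCC.

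Id4 rose in recombined cells and the other Id genes did not pass. Id4 (entry shared with AK039372 and AK034282; mm9 chromosome 13, position 48139599) had 28.4, 57.2, 24.6 and 56.8 CPM in recombined, 6.08, 9.61, 2.98 and 9.0 in unrecombined and 12.8, 7.24, 7.90 and 5.48 CPM in wild type libraries. All recombined libraries lay above all others, in a low pair (1 and 3) and a high pair (2 and 4). The recombined level was 4.98 times that of wild type cells (log2 2.32 ± 0.42, adjusted p = 0.00465, edgeR) and 6.03 times that of unrecombined cells (log2 2.59 ± 0.42, adjusted p = 0.00204). Both calls held without any single library and without recombined 3 and 4 together (adjusted p = 0.0234 and 0.0100). In the 7 libraries with salivary gland transcripts under 20 CPM they did not pass (log2 2.25 and 2.79, adjusted p = 0.0539 and 0.0624).

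Id1 had 1.37, 5.94, 1.83 and 5.24 CPM in recombined, 1.45, 1.77, 0.719 and 1.63 in unrecombined and 1.02, 0.542, 1.31 and 1.08 CPM in wild type libraries. Libraries 2 and 4 were again the high pair among the recombined ones, and recombined 1 lay barely above wild type 3. The log2 value against wild type cells was 1.86 ± 0.60 and did not pass (adjusted p = 0.0858), except with DESeq2 (0.0172) or without recombined 1 (0.0418). Id2 had 12.4, 20.5, 16.0 and 20.5 CPM in recombined, 12.1, 14.1, 9.38 and 12.7 in unrecombined and 8.31, 9.21, 15.7 and 9.07 CPM in wild type libraries. Its groups overlapped in each comparison (log2 0.71 ± 0.28 against wild type, adjusted p = 0.156). Id3 had 8.06, 18.6, 15.3 and 18.2 CPM in recombined, 15.4, 14.7, 14.4 and 19.7 in unrecombined and 10.9, 17.1, 14.3 and 23.2 CPM in wild type libraries. Its groups lay on top of each other (log2 -0.12 ± 0.30 against wild type, adjusted p = 0.870; -0.09 ± 0.30 against unrecombined, adjusted p = 0.914).

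**Figure D3:**
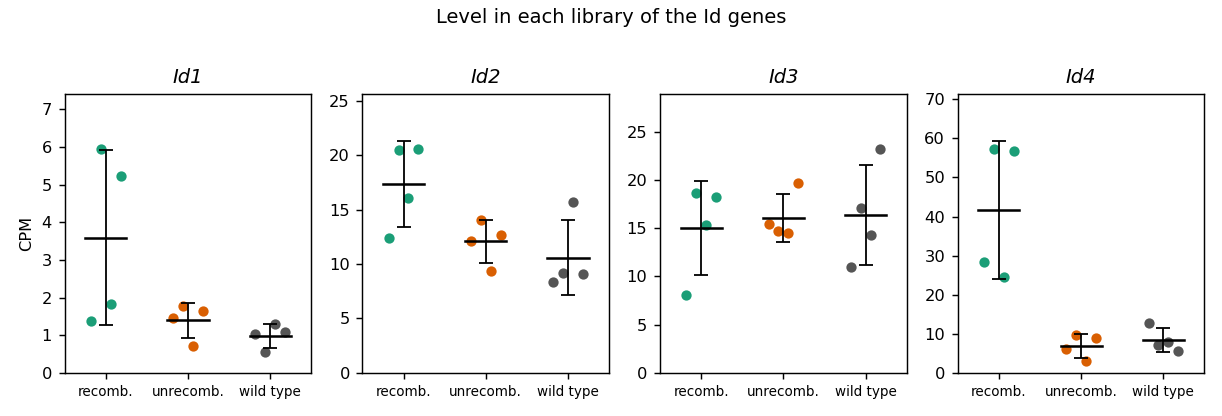
CPM of the 4 Id genes, with 1 point per library, a line at the mean of 4 and bars for the SD. Id4 separates the recombined libraries (24.6 to 57.2 CPM) from all others (2.98 to 12.8 CPM), Id1 has a high and a low pair among them, and Id3 shows no separation.

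Without overlap between the libraries of the 2 groups, 7 genes lay higher and 2 lower in recombined than in wild type cells, beside 12.2% of all loci in either direction (6.33% higher and 5.91% lower). They were the 7 that passed together with Id1 and Bmp4. Against unrecombined cells 8 lay higher (Bmp7, Acvr1, Tgfbr3, Bambi, Fst, Ltbp2, Smad1 and Id4) and 2 lower (Bmp4 and Tgfbr2), beside 11.3% of all loci (5.57% higher and 5.71% lower). DESeq2 called more loci: 9 of the 40 genes higher and 2 lower against wild type cells (11.5% of all loci, 6.82% higher and 4.69% lower), and 9 higher and 2 lower against unrecombined cells (9.61% of all loci, 5.57% higher and 4.04% lower).

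Within the recombined group, recombined 1 had the lowest of the 4 levels for 23 of the 40 tested genes, among them Bmp7, Tgfbr3, Fst, Fstl3, Bambi, Tgfb1, Id1, Id2 and Id3, and the highest level of Bmp3 and Bmp4. It also had the lowest Ptch1, 133 CPM against 337 to 809 in recombined 2 to 4, and the lowest sum of basal markers of the 4. Without recombined 1, 9 genes passed as higher against unrecombined cells, in place of 5, through Tgfb1, Acvr1, Acvr2a and Bambi. The share of all loci that passed is not given for this setting, so the gain cannot be set beside it. Without recombined 3 and 4 together, Bmp3 (adjusted p = 0.0798), Fstl3 (0.167) and Smad1 (0.216) also missed the threshold against wild type cells, as did Smad1 (0.134) and Tgfbr2 (0.118) against unrecombined cells. Of the recombined and unrecombined groups, the 7 libraries with few salivary gland transcripts hold only recombined 3 and 4 and unrecombined 3 and 4. These are all of the 24 series, so salivary gland transcripts and the number series cannot be told apart within these 2 groups. In the 7 libraries, Bmp7 (0.0322), Tgfbr3 (0.00648) and Fst (0.00971) passed against wild type cells. Tgfbr3 (0.0348), Fst (0.0179) and Ltbp2 (0.0397) passed there against unrecombined cells. Besides Id4, the calls lost there were those of Bmp3 (0.0530), Fstl3 (0.0652) and Smad1 (0.124) against wild type cells and of Bmp7 (0.108), Tgfbr2 (0.330) and Smad1 (0.0852) against unrecombined cells. Within either number series alone none of the 40 genes passed in these comparisons, and each called gene kept its direction. The 23 series holds 2 recombined, 2 unrecombined and 3 wild type libraries, and the 24 series has 1 wild type library, which is assumed to vary like the other groups.

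In unrecombined against wild type cells, none of the 40 genes passed in edgeR, where 0% of all loci passed. At an unadjusted p under 0.05 there were 6 (Bmp3, Tgfb1, Tgfbr3, Fstl1, Fstl3 and Ltbp2), beside 3.85% of all loci, and limma-voom called none of the 40 and 0.128% of all loci. DESeq2 called 1, Ltbp2, lower in unrecombined cells (log2 -1.17, adjusted p = 0.0465), and 0.556% of all loci (0.0427% lower). In edgeR Ltbp2 differed by -1.17 ± 0.30 (adjusted p = 0.460), at 15.8 ± 4.96 CPM in unrecombined and 35.7 ± 10.2 CPM in wild type cells (SD, n = 4). Bmp3 was at 10.2 ± 6.50 CPM in unrecombined and 36.1 ± 13.6 CPM in wild type cells, and the log2 value of -1.83 ± 0.81 was not past the threshold. Libraries did not overlap for 5 genes, Fstl1 and Fstl3 higher and Bmp3, Acvr1 and Ltbp2 lower in unrecombined cells, beside 4.42% of all loci (2.86% higher and 1.55% lower). For Bmp7, Fst, Smad1 and Id4 the log2 values here were 0.60 ± 0.46, -0.02 ± 0.37, -0.09 ± 0.14 and -0.27 ± 0.40.

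Beyond the 43 genes, 98 further genes of the pathway were listed by role, of which 97 were found, in 96 entries, and 75 tested. In recombined against wild type cells 8 of the 75 were higher and 5 lower, and against unrecombined cells 5 were higher and 6 lower, with median log2 values of 0.27 and 0.21. Of all loci, 4.17% were higher and 2.38% lower in the first comparison, and 3.08% higher and 2.14% lower in the second. Among the targets, Snai2, a transcription factor of basal epithelium that TGF-beta induces, had 36.7 ± 18.6 CPM in recombined, 6.21 ± 1.73 in unrecombined and 6.26 ± 2.77 CPM in wild type cells (log2 2.55 ± 0.47 and 2.56 ± 0.47 against wild type and unrecombined, adjusted p = 0.00519 and 0.00473, edgeR). Ctgf, a secreted matrix protein and TGF-beta target, had 106 ± 33.0 CPM in recombined, 32.2 ± 12.7 in unrecombined and 33.3 ± 8.63 CPM in wild type cells (log2 1.67 ± 0.31 and 1.72 ± 0.31, adjusted p = 0.00602 and 0.00477). Both rose with recombined libraries above all others, and both kept their calls without any single library. Without recombined 3 and 4 together Snai2 missed the threshold in both (adjusted p = 0.0641 and 0.0602) and Ctgf against wild type cells (0.0602). The target Tgfbi, a matrix protein named for its induction by TGF-beta, went the other way: it was at 0.564 ± 0.66 CPM in recombined, 18.4 ± 6.08 in unrecombined and 14.6 ± 7.22 CPM in wild type cells (log2 -4.64 ± 0.82 and -4.98 ± 0.83, adjusted p = 0.00423 and 0.00252). Without recombined 2 the log2 values were -5.75 and -6.09, and without recombined 3 and 4 together -3.84 and -4.17, all past the threshold. Of the 15 further targets tested, 2 thus passed as higher and 1 as lower in each comparison. Against wild type cells 13 of them had log2 values above 0 and 2 below (median 0.48). Against unrecombined cells these counts were 10 and 5 (median 0.52).

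The ligand Gdf10, a relative of Bmp3, was at 0.0299, 0.403, 0 and 0 CPM in recombined libraries (1, 11, 0 and 0 counts), against 3.88, 4.71, 4.2 and 8.83 CPM in unrecombined and 3.78, 9.37, 6.68 and 10.9 CPM in wild type libraries. It fell in both comparisons (adjusted p = 0.00163 and 0.00224), and since recombined 3 and 4 had no counts, its fitted log2 values of -6.03 and -5.52 depend on how the fit treats counts of 0. Without recombined 2, which held 11 of the 12 counts, they were -8.79 and -8.28, still past the threshold. The secreted BMP antagonist Chrdl1 (-3.98 ± 0.98 and -4.04 ± 0.98) fell in both comparisons as well, though without recombined 3 it did not pass in either (0.0520 and 0.0534), nor without wild type 3 or 4 in the first or unrecombined 1, 2 or 4 in the second (0.0544 to 0.0787), nor with limma-voom (0.144 and 0.103). Without recombined 4 its log2 values were -4.59 and -4.66, past the threshold. Dcn, a matrix proteoglycan that binds TGF-beta, fell by 1.18 ± 0.30 against wild type and by 2.37 ± 0.31 against unrecombined cells. Against wild type it no longer passed when recombined 2 (0.0631), recombined 3 (0.0998), wild type 3 (0.0850) or wild type 4 (0.0895) was left out. Against unrecombined cells the protease Htra1 (-2.39 ± 0.49) was lower too, by 3.04 without recombined 4. Against wild type cells its log2 value was -0.945 (adjusted p = 0.283, edgeR), which passed without recombined 4 (0.0499). In unrecombined against wild type cells the log2 values of Dcn and Htra1 were 1.19 and 1.45, not past the threshold (adjusted p = 0.460 and 0.874, edgeR).

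Itgb8, an integrin subunit that helps to release TGF-beta from its latent complex, rose in both comparisons (log2 1.28 ± 0.22 and 1.00 ± 0.22, adjusted p = 0.00398 and 0.0170), at 50.8 ± 13.8 CPM in recombined, 25.5 ± 0.76 in unrecombined and 20.9 ± 4.78 CPM in wild type cells; against unrecombined cells it did not pass without unrecombined 1 (0.0556). Smoc2, a matricellular protein, rose against wild type cells (2.52 ± 0.52, adjusted p = 0.0105), though not with limma-voom (0.0823) or without recombined 3 and 4 together (log2 1.59, adjusted p = 0.188). Against unrecombined cells Smoc2 did not pass (1.56 ± 0.50, adjusted p = 0.0983, edgeR). It passed with DESeq2 (0.0160), without recombined 1 (0.00417) and in the 7 libraries with few salivary gland transcripts (0.0163). In the 24 series alone its log2 value against unrecombined cells was 2.54. Nuclear and membrane inhibitors of the pathway were among the genes with smaller rises: Ski (0.74 ± 0.19 against wild type and 0.80 ± 0.19 against unrecombined), Skil (0.55 ± 0.14 against unrecombined), Tgif2 (1.08 ± 0.26 against wild type) and Pmepa1 (1.24 ± 0.29 against wild type). Against unrecombined cells Pmepa1 had a log2 value of 0.95 ± 0.29 that did not pass (adjusted p = 0.0803), and it passed with the replicate block, which pairs these groups (0.99, adjusted p = 0.00168), with DESeq2 (0.0250) and with limma-voom (0.0498). Neo1, a receptor for repulsive guidance molecules that act as BMP co-receptors, rose by 0.71 ± 0.17 against wild type cells, and the kinase Hipk2 fell by 0.80 ± 0.19. Each of these 7 rises and falls against wild type or unrecombined cells was lost without single libraries. Against wild type cells, leaving out any wild type library, recombined 2 or recombined 3 cost Ski its call (0.0551 to 0.0894). For Tgif2 these were recombined 4 and wild type 2, 3 and 4 (0.0610 to 0.0784), for Pmepa1 recombined 3 and wild type 1, 2 and 4 (0.0588 to 0.0705), for Neo1 recombined 3 and 4 and wild type 3 and 4 (0.0607 to 0.0835), and for Hipk2 recombined 3 and wild type 2 and 4 (0.0643 to 0.0715). Against unrecombined cells, Ski depended in this way on recombined 3 and unrecombined 1, 2 and 4 (0.0577 to 0.0772), and Skil on recombined 3 and 4, all 4 unrecombined libraries and wild type 3 and 4 (0.0541 to 0.109). Without recombined 3 and 4 together, 1 of the 75 genes was higher against wild type cells and 1 against unrecombined cells. Besides Snai2, Ctgf and Smoc2, the calls lost were those of Chrdl1 (0.138), Ski (0.243), Tgif2 (0.145), Pmepa1 (0.255), Neo1 (0.298) and Hipk2 (0.167) against wild type cells, and of Chrdl1 (0.141), Itgb8 (0.141), Ski (0.194) and Skil (0.358) against unrecombined cells. In the 7 libraries with few salivary gland transcripts Chrdl1 (0.0684), Dcn (0.130), Ski (0.0530), Tgif2 (0.0553) and Hipk2 (0.103) lost their calls against wild type cells, and Chrdl1 (0.133), Htra1 (0.171), Itgb8 (0.0633), Ski (0.107) and Skil (0.155) against unrecombined cells.

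**Figure D4:**
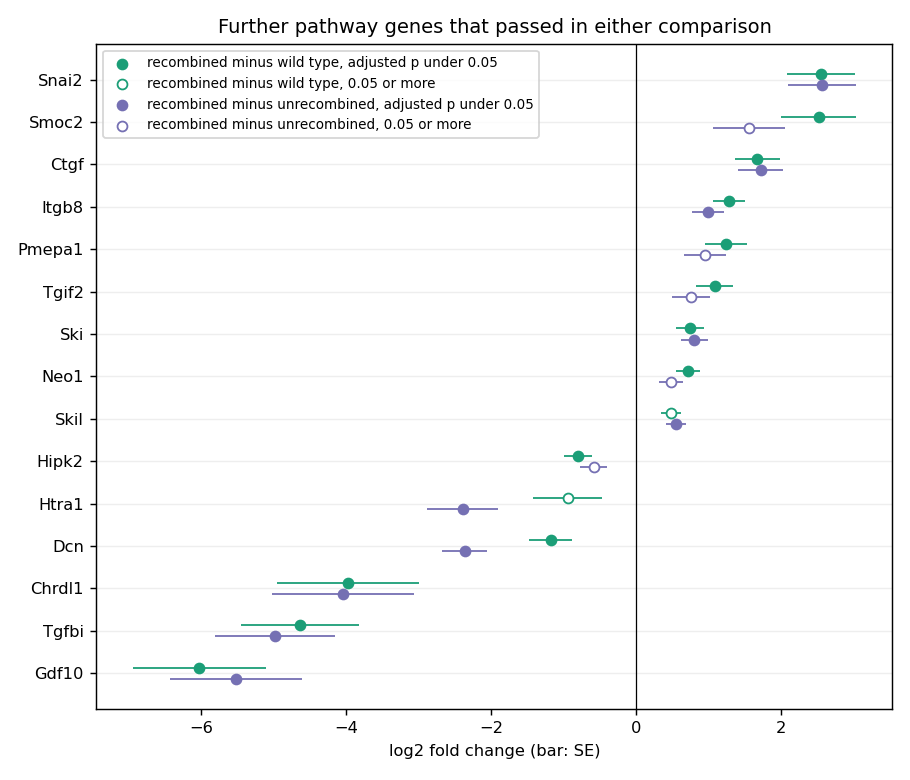
Log2 fold changes of 15 further pathway genes that passed in at least 1 comparison of recombined cells, with bars for the SE and filled points for an adjusted p under 0.05. Snai2 and Ctgf lie to the right in both comparisons, and Gdf10, Tgfbi and Chrdl1 more than 3 log2 units to the left.

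Markers of cell types moved with the same groups. The sum of 10 basal and myoepithelial markers was 1751 to 7656 CPM in recombined, 388 to 1031 in unrecombined and 751 to 969 CPM in wild type libraries, and 9 of the 10 were higher against wild type and 10 against unrecombined cells. Krt5, a keratin of basal cells, averaged 520 ± 299.6 CPM in recombined, 49.8 ± 34.7 in unrecombined and 51.4 ± 14.2 CPM in wild type cells. The sum of 10 fibroblast markers, Dcn among them, was 220 to 591 CPM in recombined, 5177 to 7324 in unrecombined and 1416 to 3411 CPM in wild type libraries, with 8 of the 10 lower against wild type and 9 against unrecombined cells. Luminal hormone-sensing markers summed to 609 to 1796 CPM in recombined, 2602 to 4383 in unrecombined and 3077 to 5920 CPM in wild type libraries, with 6 and 3 of 8 lower. None of the 6 luminal progenitor markers or the 4 luminal keratin and Epcam markers passed, endothelial markers were lower in 1 of 7 against unrecombined cells, and macrophage and dendritic markers in 4 of 7 tested against wild type cells. Of 7 pericyte markers 2 were higher and 1 lower against wild type cells, and 1 was higher and 1 lower against unrecombined cells. Neither the 1 adipocyte marker nor the 5 salivary gland markers other than Amy1 with enough counts passed in any comparison. No marker that was found was at 0 in all libraries, and transcripts of each of these types were counted in libraries labelled as epithelial. In bulk libraries, fewer cells of a type and less RNA per cell cannot be told apart, and the part of these markers in the differences of the signaling genes was not tested.

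**Figure D5:**
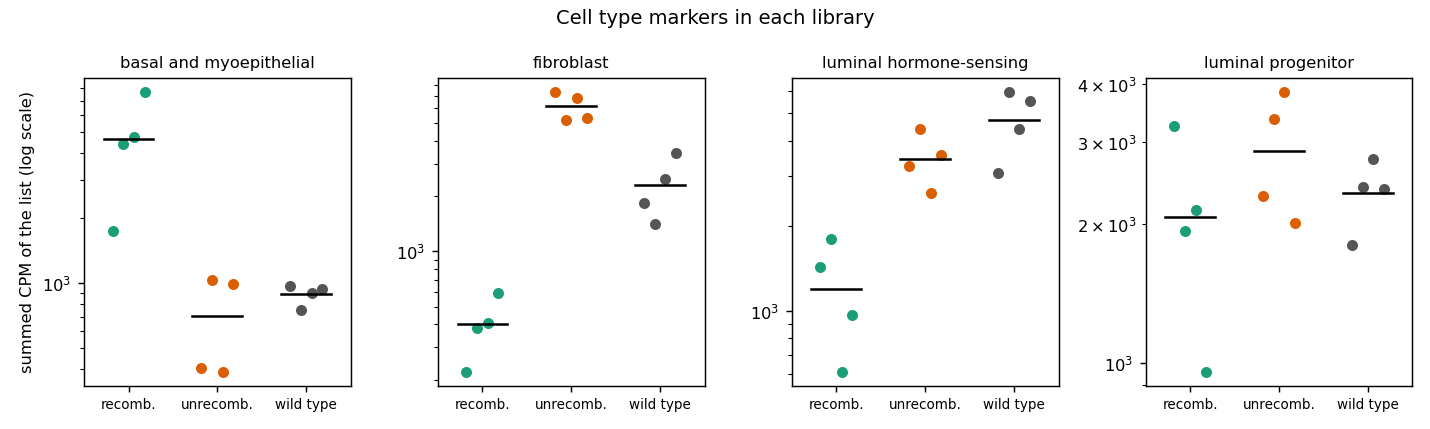
Summed CPM of 4 marker lists in each library on a log scale, with a line at the mean of 4 libraries. Basal markers are higher in recombined libraries (1751 to 7656 CPM) than in all others, fibroblast markers (220 to 591 CPM) and luminal hormone-sensing markers are lower, and luminal progenitor markers overlap.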

How the data were processed

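RNA of 12 libraries was analysed from the deposited table of raw read counts, whole numbers with a different total in each library. The submitters' processing notes name STAR, HTSeq 0.3.1 and mm9 as what the authors used. Options, strand setting and annotation are not given in the sources used here. Of 36635 entries, 20114 name 1 locus and were analysed. The other 16521 name several loci and held 0.0617% to 0.101% of the counts. Where genes overlap, on either strand, their reads cannot be separated.

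Counts were scaled with TMM, filtered with the default of filterByExpr (minimum count of 10) and tested in edgeR 4.0.16 (R 4.3.3) with 1 robust quasi-likelihood fit over the 12 libraries and two-sided F tests. P-values were adjusted by Benjamini-Hochberg over the 14039 loci, with a threshold of 0.05. CPM are given as mean ± SD and log2 fold changes with their standard error (SE), which is the log2 value divided by the square root of F. The SD and SE hold the variation between libraries, while the limit given where no read was counted covers counting error alone. Reads carry no molecular identifiers.

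The 43 genes and the lists of 98 further genes and of markers were chosen with earlier results of these data known. Values per library are given for genes that passed in a comparison and for Bmp4, Bmp7, Tgfb1, Tgfb2 and Id1 to Id4, and the other genes by means, ranges and counts. Further genes are named where they passed in a comparison of recombined cells, up to 8 in each direction. One of them is counted but not reported here by name.

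Recombined and unrecombined libraries of the same number deviated together from their group means (r of 0.239 to 0.399 across loci, against -0.240 to -0.0345 for different numbers), and those numbers were taken as pairs. Wild type libraries were not taken as paired with recombined (r of -0.0314 to 0.185) or unrecombined ones (0.00248 to 0.312).

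Alternatives were DESeq2 1.42.0, limma-voom (limma 3.58.1), DESeq2 size factors and upper quartile scaling in edgeR, no filter and a stricter filter (minimum count of 50), a fit of the 2 groups alone, a block for the replicate number, the number series as a term or 1 series alone, entries of several loci kept, each library left out, and recombined 3 and 4 left out. The 7 libraries with salivary gland transcripts under 20 CPM were chosen as an alternative after seeing the data. The fit was tested on simulated data. Promoter windows came from a RefSeq table of build GRCm38.p6.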

Additional observations from a re-analysis of the deposited data

Results flagged for a closer look

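In 2 of 120 groups of 4 libraries (1.67%) a single library stood far from the other 3, where chance flags about 1 in 20. Ltbp4 was at 39.5 CPM in unrecombined 2, against 18.2 to 21.3 CPM in the other unrecombined libraries. Id2 was at 15.7 CPM in wild type 3, against 8.31 to 9.21 CPM in the other wild type libraries. Unrecombined 2 also had the highest sum of salivary gland transcripts, 11508 CPM, and wild type 3 had a sum of 0.262 CPM. The part of those transcripts in either value was not tested.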

How the results depend on the processing

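Over 43 pairs of a named gene and a comparison past the threshold, none of the 1161 values under 27 alternatives reversed its sign and 908 stayed past the threshold. The named genes here include Smo, Ptch1 and Gli1. The alternatives reuse the same libraries, and some leave out a library of neither group compared, so they are not independent checks. Of 3606 values of pairs not past it, 203 changed sign and 47 passed. In recombined against wild type cells, with 6 signaling genes higher and 1 lower, there were 0 and 0 in the 23 series alone, 0 and 0 in the 24 series alone, 3 and 0 without recombined 3 and 4, and 3 and 0 in the 7 libraries with few salivary gland transcripts. DESeq2 gave 2 lower, no filter 0 lower, and the replicate block in the 2 groups alone 0 lower. Without single libraries there were 4 to 8 higher and 0 to 1 lower. In recombined against unrecombined cells, with 5 higher and 1 lower, there were 9 and 2 with DESeq2, 0 and 0 in either series, 2 and 0 without recombined 3 and 4, and 3 and 0 in the 7 libraries. There were 0 lower with DESeq2 size factors, no filter, the 2 groups alone, the replicate block in the 2 groups alone or the series as a term, and without single libraries 4 to 9 higher and 0 to 1 lower. With the replicate block, which pairs these groups, 7 were higher, through Acvr1 and Tgfbr3, and it changed no other call of the 40 genes here; in the 2 groups alone it also cost Tgfbr2 its call. Against wild type cells, whose numbers are not taken as pairs, the block in all 12 libraries gave 6 higher and 1 lower. In unrecombined against wild type cells, DESeq2 gave 1 signaling gene lower and 1 further gene higher, in place of 0. The further gene was Dcn (log2 1.19, adjusted p = 0.0349, DESeq2).

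Of the 75 further genes, 8 higher and 5 lower against wild type became 17 higher with DESeq2, 3 lower with the 2 groups alone, 0 and 1 in the 23 series, 0 and 0 in the 24 series, 1 higher without recombined 3 and 4 and 3 lower in the 7 libraries. Without single libraries there were 5 to 13 higher (5 without recombined 3, wild type 3 or wild type 4, 13 without recombined 1) and 2 to 6 lower (3 without wild type 3, 2 without wild type 4). The 5 higher and 6 lower against unrecombined cells became 9 higher with DESeq2, 3 with the 2 groups alone, 10 with the replicate block in the 2 groups alone, 0 and 2 in the 23 series, 1 and 0 in the 24 series, 1 higher without recombined 3 and 4, and 3 and 3 in the 7 libraries. Without single libraries there were 2 to 9 higher (9 without recombined 1, 3 without recombined 3 or unrecombined 4, 2 without unrecombined 1) and 4 to 6 lower. The alternatives with fewer libraries have less power by construction, and the cause of the other shifts was not tested. For most alternatives the share of all loci that passed is not given, so these counts cannot be set beside it. Upper quartile scaling moved the median of all loci to -0.08 at most.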
